A study of Mus musculus with 12 samples.

Results

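The genes described here are 8 genes of the Schwann cell and its myelin sheath, Mbp, Pmp22, Mag, Prx, Egr2, Sox10, Pou3f1 and Gldn, measured in the mouse cochlea at postnatal day 8 (P8) and at postnatal day 0 (P0). They were chosen by name, and each gene was represented by the entry of the array that carried its symbol alone. Of the 8 genes, 7 had 1 such entry and were among the 16306 genes tested on this array. No entry carried the symbol Prx alone, so the gene was not analysed here. The tissue came from wild-type C57BL/6 pups with no treatment. About 80 temporal bones were dissected per set, and the otic capsule was removed. Cochlear tissue that included the organ of Corti, the lateral wall and the spiral limbus was then dissected out. It was cut into a basal, a middle and an apical piece. The 12 arrays were 6 at P8 and 6 at P0, and each of the 6 groups of age and piece held 2 arrays, 1 from a first and 1 from a second dissection set. The sample titles give the sets different years, so a difference between dissections cannot be told apart from one between years. The 3 pieces of a set at 1 age were cut from the same cochleae, so there are 4 pools in all. The ganglion that holds the auditory neurons is not named among the tissues taken.

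Schwann cells are the glia of peripheral nerves, the peripheral part of the auditory nerve included. A Schwann cell that selects an axon segment first turns on Pou3f1, under the control of Sox10, and then Egr2, which with Sox10 drives the genes of the sheath. The sheath is wrapped into compact myelin, held together by proteins such as Mbp and Pmp22, while Mag sits in the membrane that faces the axon and Prx in the outermost membrane. Gldn is secreted by the Schwann cell processes at the node of Ranvier, the gap between sheaths where sodium channels gather.

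Promoter windows are shown for Mag, Gldn and Pmp22, which were higher at P8, and for Egr2, the factor that is known to activate myelin genes. Each is 300 bases that span an annotated transcript start, from RefSeq on build GRCm38.p6, read 5′ to 3′ on the strand of the gene. The Mag window lies at chr7:30914814-30915113 on the minus strand, and the others lie on the plus strand, Gldn at chr9:54286236-54286535, Pmp22 at chr11:63128732-63129031 and Egr2 at chr10:67537619-67537918. For a gene with several windows, 1 with a motif match was taken where there was any, and otherwise the one with the lowest coordinate. Capitals mark a match to a searched motif on either strand.
Mag: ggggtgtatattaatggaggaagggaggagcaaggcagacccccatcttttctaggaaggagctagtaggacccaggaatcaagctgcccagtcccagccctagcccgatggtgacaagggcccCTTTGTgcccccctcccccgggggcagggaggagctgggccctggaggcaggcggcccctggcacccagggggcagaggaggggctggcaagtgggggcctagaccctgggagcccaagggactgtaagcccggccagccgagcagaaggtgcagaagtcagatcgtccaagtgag
Gldn: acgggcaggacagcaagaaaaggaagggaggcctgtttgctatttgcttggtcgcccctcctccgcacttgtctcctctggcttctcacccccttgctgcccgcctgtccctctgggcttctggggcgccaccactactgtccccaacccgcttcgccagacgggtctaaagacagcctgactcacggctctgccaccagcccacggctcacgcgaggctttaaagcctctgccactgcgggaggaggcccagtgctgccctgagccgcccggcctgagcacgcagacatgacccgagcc
Pmp22: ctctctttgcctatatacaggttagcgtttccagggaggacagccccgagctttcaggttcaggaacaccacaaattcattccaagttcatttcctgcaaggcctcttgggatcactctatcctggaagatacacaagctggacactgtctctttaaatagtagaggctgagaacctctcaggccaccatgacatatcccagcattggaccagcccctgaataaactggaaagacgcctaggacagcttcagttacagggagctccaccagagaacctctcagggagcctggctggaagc
Egr2: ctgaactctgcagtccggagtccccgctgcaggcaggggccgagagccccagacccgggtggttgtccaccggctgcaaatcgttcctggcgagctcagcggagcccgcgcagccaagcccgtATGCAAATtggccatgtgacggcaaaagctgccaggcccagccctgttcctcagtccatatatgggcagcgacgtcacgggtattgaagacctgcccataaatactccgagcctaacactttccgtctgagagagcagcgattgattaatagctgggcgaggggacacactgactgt
The motifs searched were GCGTGGGNG for EGR proteins, ACAAAG and ACAATG for SOX proteins, and the octamer ATGCAAAT for POU proteins. Of 32851 windows of this length, 1.9% held the EGR motif, 18.7% held ACAAAG, 12.6% held ACAATG and 1.74% held the octamer. The Mag window held ACAAAG on the opposite strand, printed as CTTTGT, 126 bases before the start. The Egr2 window held the octamer 127 bases before its start. Both windows were chosen for having a match, so the shares above are no background for them. The Gldn and Pmp22 windows held none of these letters, and no match overlapped another. In all, 14 windows of 5 genes were searched, and a window of Prx held the octamer 233 bases before its start. Sox10 and Pou3f1 have no entry in the table of windows, and no window of Mbp was searched.

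Values are the log2 signals of robust multiarray averaging (RMA), a method that removes background, brings the arrays to 1 scale and summarises the probes of an entry. A signal depends on the probes of its gene, so levels are compared between arrays and not between genes. Differences are P8 minus P0, or apex minus base, on the log2 scale with the standard error (SE) of 1 limma fit to the 6 group means. Over the 3 pieces, passing the test took a p under 0.05 after Benjamini-Hochberg adjustment and a fold of at least 2, that is, a log2 difference of 1. Within a piece the fold had to be at least 1.5. The array medians of the tested genes ran from 8.02 to 8.19. Between the 2 arrays of a group, the SD was 0.175 in the median over genes and groups, with a 90th percentile of 0.51. The fit takes the 6 arrays of an age as independent although they come from 2 pools, so the comparison of the ages over the 3 pieces is also given from 1 value per pool.

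Both genes of compact myelin, Mbp and Pmp22, were higher in all 6 P8 arrays than in all 6 P0 arrays. Mbp encodes myelin basic protein, which draws the cytoplasmic faces of the membrane together, and lies on chromosome 18 at 82475091 to 82585637 (GRCm38.p6). Mbp at P8 had a log2 signal of 9.01 (base), 9.02 (middle) and 8.96 (apex) in the first set, and 8.45, 9.01 and 9.03 in the same pieces of the second set. At P0, Mbp had 7.84 (base), 8.06 (middle) and 8.03 (apex) in the first set, and 8.30, 8.11 and 7.92 in the same pieces of the second set. The lowest P8 array, the base of the second set, stood just above the highest P0 array, the base of the same set, and the ages did not overlap. Mbp averaged 8.91 ± 0.23 at P8 and 8.04 ± 0.16 at P0 (SD, n = 6 arrays each). The difference was 0.87 ± 0.12 (SE, n = 6 arrays per age, limma, adjusted p = 0.00132), which is under a fold of 2.

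Pmp22 encodes a peripheral myelin protein, a membrane protein of compact myelin that other cells also make, and lies on chromosome 11 at 63128982 to 63159547. Pmp22 at P8 had a log2 signal of 12.24 (base), 12.70 (middle) and 12.62 (apex) in the first set, and 11.54, 11.70 and 11.88 in the same pieces of the second set. At P0, Pmp22 had 10.75 (base), 10.69 (middle) and 10.63 (apex) in the first set, and 11.21, 11.08 and 10.59 in the same pieces of the second set. All 6 P8 arrays were above all 6 P0 arrays, and the first set spanned a wider gap between the ages than the second, 1.83 against 0.75 over the 3 pieces. Pmp22 averaged 12.11 ± 0.48 at P8 and 10.83 ± 0.26 at P0 (SD, n = 6 arrays each), and it rose by 1.29 ± 0.22 (SE, n = 6 arrays per age, limma, adjusted p = 0.00429). In a bulk sample, a change in the number of Schwann cells and a change in the RNA per Schwann cell cannot be told apart, and this holds for each gene here.

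Mag encodes myelin-associated glycoprotein, an adhesion molecule of the membrane next to the axon, and lies on chromosome 7 at 30899175 to 30914922. Mag at P8 had a log2 signal of 7.37 (base), 7.32 (middle) and 7.42 (apex) in the first set, and 6.54, 6.89 and 7.18 in the same pieces of the second set. At P0, Mag had 6.53 (base), 6.48 (middle) and 6.76 (apex) in the first set, and 6.55, 6.49 and 6.45 in the same pieces of the second set. A promoter window of the gene, printed above, holds the SOX letters. The P8 base of the second set lay within the P0 range, and the other P8 arrays lay above it. Mag averaged 7.12 ± 0.34 at P8 and 6.54 ± 0.11 at P0 (SD, n = 6 arrays each). The difference was 0.58 ± 0.15 (SE, n = 6 arrays per age, limma, adjusted p = 0.0315), under a fold of 2, and the adjusted p ran from 0.00647 to 0.0823 when 1 array at a time was left out, and was above 0.05 in 7 of the 12 fits.

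Gldn encodes gliomedin, which binds axonal adhesion molecules and helps to cluster sodium channels at the node, and lies on chromosome 9 at 54286486 to 54341777. Gldn at P8 had a log2 signal of 7.44 (base), 7.99 (middle) and 7.35 (apex) in the first set, and 7.18, 7.76 and 7.48 in the same pieces of the second set. At P0, Gldn had 6.55 (base), 6.37 (middle) and 6.39 (apex) in the first set, and 6.49, 6.50 and 6.66 in the same pieces of the second set. The ages did not overlap, and the middle was the highest P8 piece in both sets. Gldn averaged 7.53 ± 0.29 at P8 and 6.49 ± 0.11 at P0 (SD, n = 6 arrays each), and it rose by 1.04 ± 0.09 (SE, n = 6 arrays per age, limma, adjusted p = 0.000123). Its difference was close to the threshold and was 0.99 without the P0 apex or the P8 base of the first set and just under 1 without its P8 middle, each of which ended the call on fold alone. The P0 apex of the first set had the highest summed signal of 7 skeletal muscle markers, 2403 against 773 to 1162 in the other 11 arrays, whose part in the result was not tested.

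**Figure D1:**
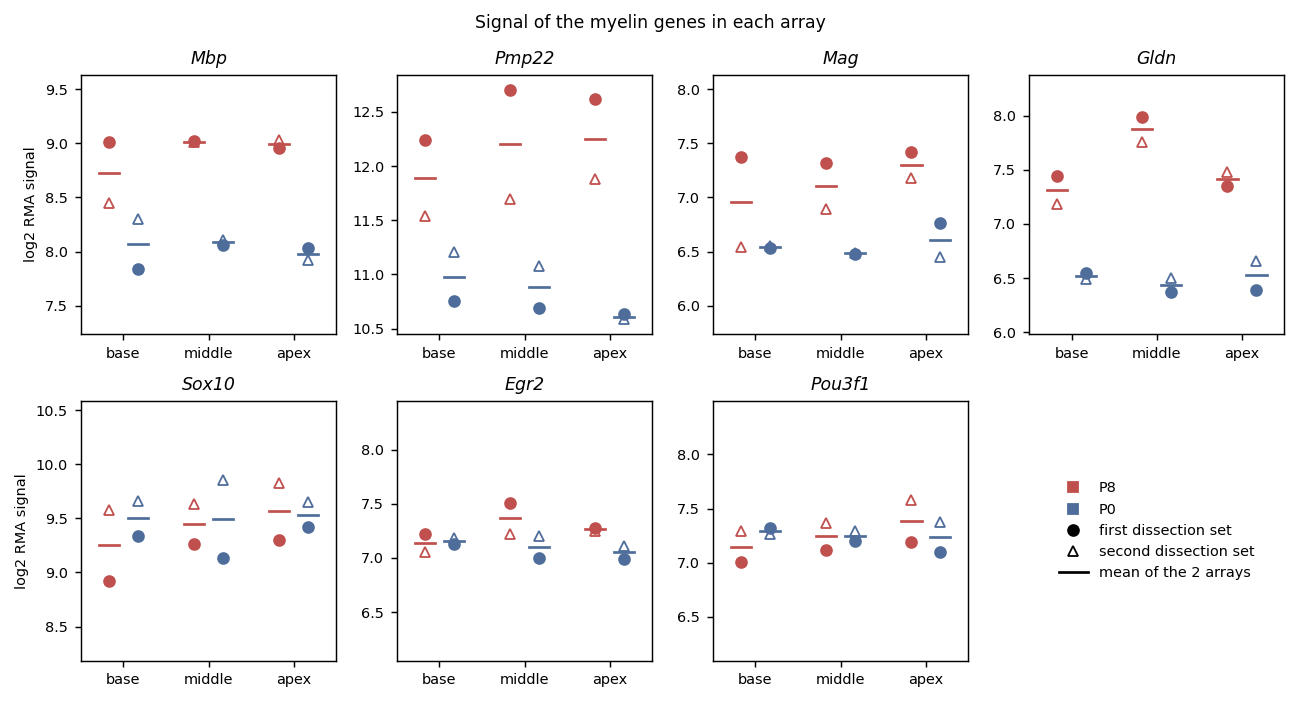
Log2 RMA signal (y axis) of the 7 genes in each of the 12 arrays, by piece of the cochlea (x axis), with P8 in red left of P0 in blue, filled circles marking the first set of dissections, open triangles the second, and lines the mean of the 2 arrays. All 6 P8 arrays lie above all 6 P0 arrays for Mbp, Pmp22 and Gldn, while the ages overlap for Mag, Sox10, Egr2 and Pou3f1.

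The transcription factors gave no such separation. Egr2 encodes the zinc finger factor that is required for myelination of peripheral nerves, and lies on chromosome 10 at 67534469 to 67542188. Egr2 at P8 had a log2 signal of 7.22 (base), 7.51 (middle) and 7.28 (apex) in the first set, and 7.05, 7.22 and 7.25 in the same pieces of the second set. At P0, Egr2 had 7.13 (base), 7.0 (middle) and 6.99 (apex) in the first set, and 7.18, 7.20 and 7.11 in the same pieces of the second set. The ages overlapped, and the P8 minus P0 difference over the 3 pieces was 0.30 in the first set and 0.01 in the second. Its window printed above was chosen for holding the octamer of POU factors such as Pou3f1, which overlapping windows of the gene also held. Over both sets the difference was 0.15 ± 0.09 (SE, n = 6 arrays per age, limma, adjusted p = 0.27).

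Sox10 encodes an SRY-related factor of neural crest cells, which is kept in all stages of the Schwann cell and is also made by melanocytes and by the otic epithelium. It lies on chromosome 15 at 79154913 to 79164490. Sox10 at P8 had a log2 signal of 8.92 (base), 9.26 (middle) and 9.30 (apex) in the first set, and 9.58, 9.63 and 9.83 in the same pieces of the second set. At P0, Sox10 had 9.34 (base), 9.13 (middle) and 9.42 (apex) in the first set, and 9.66, 9.85 and 9.65 in the same pieces of the second set. Sox10 separated by dissection set and not by age. The 6 arrays of the second set ran from 9.58 to 9.85 and those of the first from 8.92 to 9.42. All 6 arrays of the second set were above all 6 of the first in 11.1% of the tested genes. The P8 minus P0 difference of Sox10 was -0.09 ± 0.18 (SE, n = 6 arrays per age, limma, adjusted p = 0.786).

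Pou3f1 encodes a POU domain factor of the promyelinating Schwann cell, which is turned down once the sheath is made, and lies on chromosome 4 at 124657646 to 124660655. Pou3f1 at P8 had a log2 signal of 7.01 (base), 7.12 (middle) and 7.19 (apex) in the first set, and 7.29, 7.37 and 7.58 in the same pieces of the second set. At P0, Pou3f1 had 7.32 (base), 7.20 (middle) and 7.10 (apex) in the first set, and 7.27, 7.29 and 7.38 in the same pieces of the second set. The P0 arrays lay within the range of the P8 arrays. The difference was 0.00 ± 0.11 (SE, n = 6 arrays per age, limma, adjusted p = 1). The SE of this comparison was 0.09 to 0.18 for the 3 factors and 0.09 to 0.22 for the sheath and node genes.

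Counted together, 2 of the 7 genes, Pmp22 and Gldn, passed the test over the 3 pieces, beside 2.06% of all tested genes higher at P8 under the same rule. On the adjusted p alone, Mbp and Mag were also higher, which made 4 of the 7 beside 9.52% of all tested genes. In 3 of the 7 all P8 arrays stood above all P0 arrays, beside 8.08% of all tested genes. The median difference was 0.58 over the 7 genes and 0.00 over all tested genes. From 1 value per pool, with 2 pools per age, none of the 7 passed, and the rule called 0.0307% of all tested genes in either direction, or 5 genes. The adjusted p from limma was then 0.0925 for Gldn, 0.132 for Mbp, 0.209 for Pmp22, 0.389 for Mag, 0.78 for Egr2, 0.935 for Sox10 and 1 for Pou3f1, with the same differences as above. At an unadjusted p under 0.05 the first 4 were still higher, but Mag only just. Their unadjusted p from limma was 0.00125 for Gldn, 0.00312 for Mbp, 0.0118 for Pmp22 and 0.0499 for Mag. How many of all tested genes reached this level was not counted, so the 4 have no background share. When a doubling or halving was required too, 514 of the 16306 genes remained, Gldn and Pmp22 among them. Within the sets, the P8 minus P0 difference was 1.02 in the first and 0.72 in the second for Mbp, 0.78 and 0.37 for Mag, and 1.15 and 0.92 for Gldn. The second set gave the smaller difference for each of these genes and for Pmp22.

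Within single pieces, each age had 2 arrays. In the base, Gldn rose by 0.79 ± 0.16 (SE, n = 2 arrays per age, limma, adjusted p = 0.0297), and no other of the 7 genes passed, beside 2.34% of all tested genes called higher. In the middle, Gldn rose by 1.43 ± 0.16 (adjusted p = 0.00188) and Mbp by 0.93 ± 0.21 (adjusted p = 0.0431), beside 2.37% of all tested genes. In the apex, Pmp22 rose by 1.64 ± 0.39 (adjusted p = 0.0498), Mbp by 1.01 ± 0.21 (adjusted p = 0.029) and Gldn by 0.89 ± 0.16 (adjusted p = 0.0162), beside 2.42% of all tested genes. In the base, the differences of Mbp, Pmp22 and Mag were 0.66 ± 0.21, 0.90 ± 0.39 and 0.41 ± 0.27, and in the apex that of Mag was 0.69 ± 0.27 (adjusted p = 0.222). The order of the pieces differed between the sets. In the first set Mbp differed by 1.17 (base), 0.96 (middle) and 0.92 (apex) and Mag by 0.84, 0.85 and 0.66 in the same pieces. In the second set Mbp differed by 0.15 (base), 0.91 (middle) and 1.11 (apex) and Mag by -0.01, 0.40 and 0.73 in the same pieces. Without the P8 base of the second set, the difference in the base was 0.94 for Mbp and 0.83 for Mag. Pmp22 had its smallest difference in the base in both sets, 1.49 in the first and 0.32 in the second. The test of apex against base in this difference, given with the gradients, passed for none of them.

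A fit with a replicate block for the dissection set, which joins the P8 and the P0 pool of the same number, gave more calls. Mbp passed in the base (limma, adjusted p = 0.0368), Pmp22 in the middle (0.0159), and Mag in the middle (0.0404) and the apex (0.0234). The counts became 2 of 7 (base), 4 (middle) and 4 (apex), beside 6.27%, 6.16% and 6% of all tested genes called higher with the block. The calls without the block were sensitive to single arrays. When each of the 12 arrays was left out in turn, the apical call of Pmp22 held only without the P8 middle of either set. The call of Mbp was lost in 8 of the 12 fits in the middle and in 6 in the apex, and that of Gldn in 6 in the base and 3 in the apex. The call of Gldn in the middle held in each of the 12.

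**Figure D2:**
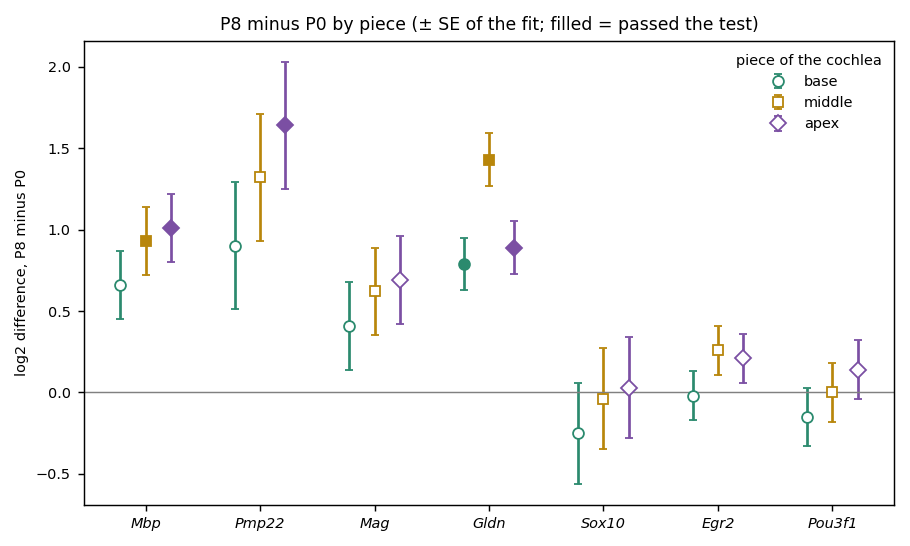
Log2 difference between P8 and P0 (y axis, P8 minus P0, ± SE of the limma fit) for each gene (x axis) in the base (green circles), the middle (yellow squares) and the apex (purple diamonds), with 2 arrays per age in each piece. Filled symbols passed the test: Gldn in all 3 pieces, Mbp in the middle and apex, and Pmp22 in the apex, while the differences of Sox10, Egr2 and Pou3f1 lie between -0.25 and 0.26.

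The cochlea matures along its length, and the comparison of apex with base asks whether the myelin genes followed a gradient at either age. None passed the test at P8 or at P0. At P8, the apex minus base differences were 0.36 ± 0.39 for Pmp22, 0.35 ± 0.27 for Mag, 0.31 ± 0.31 for Sox10, 0.26 ± 0.21 for Mbp, 0.24 ± 0.18 for Pou3f1, 0.13 ± 0.15 for Egr2 and 0.11 ± 0.16 for Gldn (SE, n = 2 arrays per piece), each with an adjusted p of 1 from limma. All 7 were above 0, with a median of 0.26, beside 50.6% of all tested genes above 0 and a median of 0.00. The 7 values come from the same 4 arrays, so they are not 7 independent signs. Within the sets, both differences were above 0 for Pmp22, Mag, Sox10, Egr2 and Pou3f1. For Mbp they were -0.06 in the first set and 0.57 in the second, and for Gldn -0.08 and 0.29. The low P8 base of the second set carries the values of Mbp and Mag, whose differences were -0.02 and -0.07 without it.

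At P0, 3 of the 7 genes were above 0, beside 57.2% of all tested genes, and the median was -0.05. The differences ran from -0.37 ± 0.39 for Pmp22 to 0.07 ± 0.27 for Mag. The change of the apex-base difference between the ages was 0.73 ± 0.55 for Pmp22, 0.35 ± 0.29 for Mbp and 0.10 ± 0.22 to 0.29 ± 0.26 for the other 5 (adjusted p of 1 each, limma). None of the 7 had an unadjusted p under 0.05 in any of these 3 comparisons without a block. None passed with the dissection set as a block, where Sox10 at P8 had the lowest unadjusted p (0.0458, adjusted p = 0.413). Nor did any pass between apex and base with the 4 pools as a block, where 4 of the 14 tests had an unadjusted p under 0.05. These were Pmp22 at P8 (0.36 ± 0.13, limma, adjusted p = 0.153) and at P0 (-0.37 ± 0.13, adjusted p = 0.226), and at P8 Mag (adjusted p = 0.199) and Sox10 (adjusted p = 0.208). The share of all tested genes at this unadjusted level was not counted with this block. The 4 tests therefore have no background share, and no excess can be read from them. Without a block, the tests called 0.196% of all tested genes between apex and base at P8 and 0.00613% at P0, in either direction. They called 0% for the change. With the dissection set as a block they called 257, 110 and 29 of the 16306 genes, in the same order. With the 4 pools as a block they called 458 at P8 and 231 at P0.

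**Figure D3:**
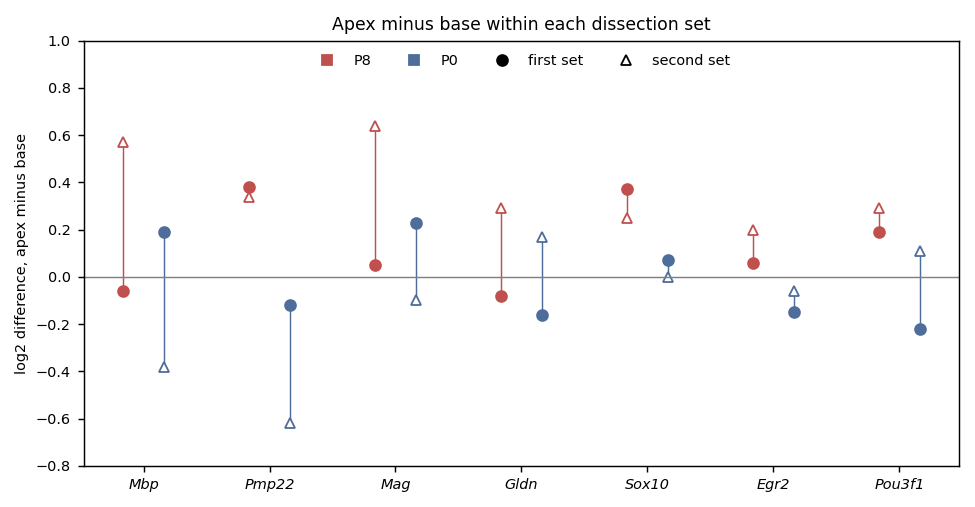
Apex minus base on the log2 scale (y axis) within the first (filled circles) and the second dissection set (open triangles) for each gene (x axis), at P8 in red and at P0 in blue, each point being 1 apical array minus 1 basal array of the same pool. At P8 both sets lie above 0 for 5 of the 7 genes, and at P0 the sets differ in sign for Mbp, Mag, Gldn and Pou3f1, and Sox10 lies near 0.

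Gldn had its highest P8 signal in the middle piece in both sets. At P8 the middle was above the base by 0.55 in the first set and 0.57 in the second, and the apex minus the middle was -0.63 and -0.28. Mbp had a P8 middle above the base by 0.01 and 0.56, and Pmp22 by 0.46 and 0.17. At P0 the middle of Gldn minus the base was -0.18 and 0.00. The middle was not among the pieces tested against another, and this order was picked out after the values were seen, so it stands as a description.

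The other genes of the pathway were taken as 9 lists, from compact myelin to lipid synthesis, which hold 100 genes with 94 tested. Over the 3 pieces 6 of the 94 rose and 1 fell, beside 2.06% of all tested genes higher and 1.14% lower, and the median difference was 0.02. Without the genes described above, 4 of 87 rose and 1 fell. Of the 5 compact myelin genes tested, 2 rose and none fell, with a median of 1.12. Mal, a proteolipid of myelin and of epithelial membranes, averaged 10.36 ± 0.28 at P8 and 8.75 ± 0.39 at P0 (SD, n = 6 arrays each) and rose by 1.61 ± 0.12 (SE, limma, adjusted p = 4.35e-05). Pmp2, the fatty acid binding protein of peripheral myelin, differed by 0.99 ± 0.18 (adjusted p = 0.00585), just under a fold of 2. Its P0 arrays ran from 4.96 to 5.37, below the log2 signal of 6 that a group mean had to exceed. Pmp2 was therefore tested only through its P8 signal, and its place among the higher genes of its lists depended on that filter. Cd9, a tetraspanin, differed by 1.12 ± 0.43 (adjusted p = 0.11) and passed with the replicate block (adjusted p = 5.27e-06).

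Of 11 genes of the paranode, noncompact myelin and internode, 1 rose and none fell, with a median of 0.15. Gjc3, a connexin of myelinating glia, averaged 10.10 ± 0.37 at P8 and 9.07 ± 0.65 at P0 (SD, n = 6 arrays each). It rose by 1.03 ± 0.29 (SE, limma, adjusted p = 0.0405), and the call was lost in 7 of the 12 fits that left out 1 array. Cldn19, a claudin of Schwann cell tight junctions, differed by 1.05 ± 0.37 (adjusted p = 0.0862) and passed with the replicate block (adjusted p = 0.00438). Of 11 genes of the node and its axonal partners, only Gldn passed, and the median was 0.11. Nrcam, an adhesion molecule that gliomedin binds at the node, was lower at P8 with a difference of -0.69 ± 0.08 (adjusted p = 0.000454), under a fold of 2.

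Of 12 abaxonal scaffold and laminin genes, 1 rose and none fell, with a median of 0.20. Lama2, the laminin chain of the Schwann cell basement membrane that muscle and other tissues also make, averaged 10.35 ± 0.25 at P8 and 9.17 ± 0.18 at P0 and rose by 1.17 ± 0.11 (SE, n = 6 arrays per age, limma, adjusted p = 0.000158). Drp2, the dystrophin-related partner of periaxin, differed by 0.64 ± 0.15 (adjusted p = 0.019). None of 10 promyelinating transcription genes passed, with a median of -0.02 and 1 lower on the adjusted p alone, Nfatc4 (-0.74 ± 0.11, adjusted p = 0.00162). None of 10 genes of signalling between axon and Schwann cell and none of 13 lipid synthesis genes passed, with medians of -0.04 and -0.01. On the adjusted p alone, 2 of the signalling genes were higher and 2 lower, and 3 of the lipid genes were higher and 1 lower, beside 9.52% of all tested genes higher and 9.19% lower. Fa2h, the enzyme of hydroxylated myelin lipids, was among the higher (0.67 ± 0.13, adjusted p = 0.00811). Sqle, an enzyme of cholesterol synthesis (-0.37 ± 0.07, adjusted p = 0.00835), and Nrg1, the axonal growth factor that ErbB receptors bind (-0.54 ± 0.09, adjusted p = 0.0046), were among the lower.

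Among 14 genes of the immature and repair Schwann cell, none rose and 1 fell, with a median of -0.05. Gap43, a growth cone protein that neurons also make, averaged 7.62 ± 0.31 at P8 and 9.01 ± 0.78 at P0 and fell by 1.39 in log2 signal (SE 0.37, n = 6 arrays per age, limma, adjusted p = 0.0299). This call was lost in 7 of the 12 fits that left out 1 array. On the adjusted p alone, 2 of the 14 were higher and 4, Gap43 included, were lower. The higher were Pax3 (0.57 ± 0.09, adjusted p = 0.00272) and Id2 (0.73 ± 0.22, adjusted p = 0.0474), both transcription regulators. Ngfr, the low-affinity neurotrophin receptor of immature Schwann cells, was among the lower (-0.68 ± 0.13, adjusted p = 0.00838), as was Sox2 (-0.96 ± 0.14, adjusted p = 0.0018), which supporting cells of the organ of Corti also make. In the precursor and glial lineage list, 1 of 9 genes rose. S100b, a calcium-binding protein of glia and of some other cochlear cells, averaged 11.56 ± 0.25 at P8 and 9.33 ± 0.52 at P0 and rose by 2.23 ± 0.16 (adjusted p = 3.77e-05). Erbb3, the neuregulin receptor of the Schwann cell lineage, was lower at P8 by the adjusted p alone (-0.55 ± 0.12, adjusted p = 0.0113). Over the 9 lists, none of the 94 genes passed from 1 value per pool.

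**Figure D4:**
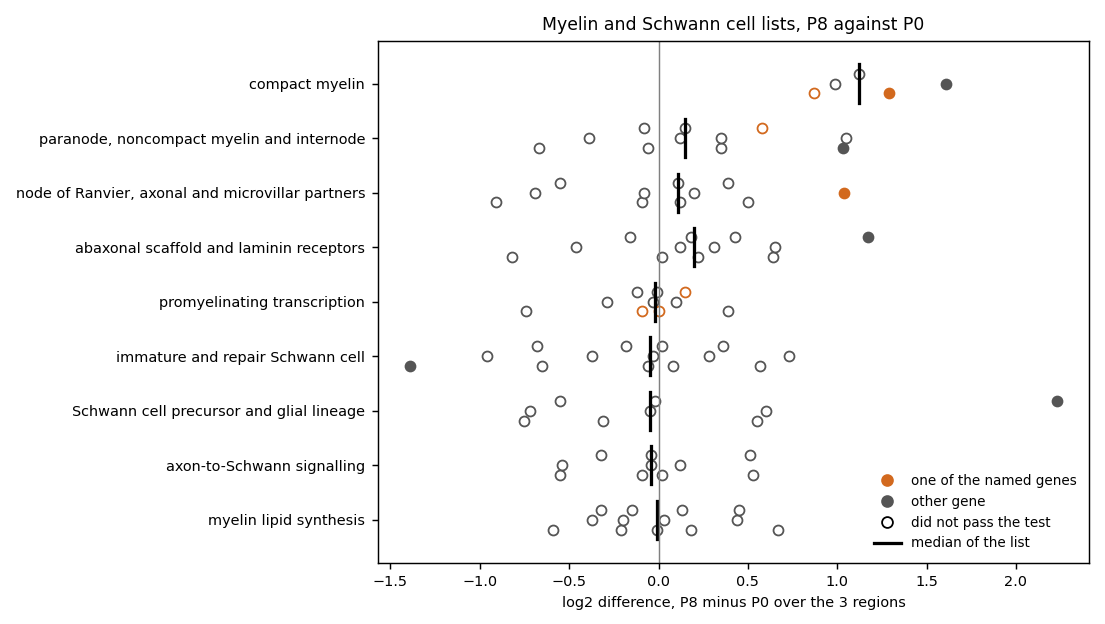
Log2 difference between P8 and P0 over the 3 pieces (x axis, P8 minus P0) of the tested genes of the 9 lists (y axis), with orange circles for the genes described above, grey circles for the others, filled circles for genes that passed the test and bars for the list medians. The median of compact myelin is 1.12, while the other 8 medians lie between -0.05 and 0.20.

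Several of these genes are also made by cells other than Schwann cells, so markers of other cochlear cell types are given beside them, as signals summed on the linear scale. Of 10 further Schwann cell markers, 2 rose and none fell. On the adjusted p alone 4, Pmp2 included, were higher and 2, Erbb3 and Ngfr, were lower. Their sum was 5805 to 6841 in the P8 arrays and 3056 to 3909 in the P0 arrays, and it includes S100b, with a log2 signal of 11.56 at P8 and 9.33 at P0. Oligodendrocytes make Mbp and Mag in the central nervous system. Their defining markers Mog, Mobp, Opalin and Olig2 summed to 279 to 348 at P8 and 286 to 348 at P0, and none of the 4 rose. In the whole list of 8, 2 rose, Mal, given above, and Gpr37, a receptor of myelinating glia (1.40 ± 0.09, SE, limma, adjusted p = 1.92e-05), and the sum was 4506 to 6108 at P8 and 2213 to 3894 at P0. Of 12 markers of spiral ganglion neurons, none rose and 4 fell, among them Stmn2 (-2.25 ± 0.26, SE, limma, adjusted p = 0.000556), and the sum was 2597 to 4587 at P8 and 5029 to 7303 at P0. The P8 base of the second set, the lowest P8 array for Mbp, Pmp22, Mag and Gldn, also had the lowest sum of neuron markers, 2597. It had the highest melanocyte sum, 12707, and the highest bone sum, 7845, as well. The P8 base of the first set had the next lowest sum of neuron markers, 2984. Its log2 signals were 9.01 for Mbp and 7.37 for Mag, within the range of the other P8 arrays. Melanocyte and strial intermediate cell markers, 5 of 8 of which rose, summed to 7441 to 12707 at P8 and 3440 to 5538 at P0. All 6 bone markers tested rose, with sums of 2867 to 7845 at P8 and 606 to 869 at P0. Connective tissue markers, 1 of 8 of which rose, summed to 19656 to 26397 at P8 and 14382 to 17146 at P0. Supporting cell markers, with 1 higher and 1 lower of 8, summed to 9865 to 11150 at P8 and 6904 to 9033 at P0. Hair cell markers, with 2 higher and 1 lower of 8, summed to 2108 to 5021 at P8 and 1764 to 1993 at P0, and macrophage markers, none of which passed, to 2164 to 2811 at P8 and 1656 to 1958 at P0. For connective tissue, supporting cells, hair cells and macrophages, as for melanocytes and bone, the sums at P8 did not overlap those at P0. Such sums weigh the strongest genes most. The hair cell list had a median difference of -0.20, while its gene Ocm averaged 10.62 at P8 and 5.94 at P0. On the adjusted p alone, 2 supporting cell markers were higher and 3 lower. Endothelial sums overlapped, with 3787 to 5819 at P8 and 3391 to 3924 at P0. The part of these other cells in the results was not tested.

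Over the 12 arrays, the sheath and node genes had like profiles. Pearson's r was 0.92 between Mbp and Pmp22, 0.92 between Mbp and Gldn, 0.89 between Pmp22 and Mag, 0.87 between Mbp and Mag, 0.88 between Pmp22 and Gldn and 0.78 between Mag and Gldn. Egr2 had r = 0.81 with Pmp22, 0.75 with Gldn and 0.69 with Mbp and with Mag. Sox10 and Pou3f1 had r = 0.79 with each other and between -0.40 and 0.02 with the sheath and node genes. These values describe 12 arrays that share ages, sets and pools, and genes that differ between the ages or the sets correlate across them.

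The genes most like each one were sought among the 1701 genes with an SD of at least 0.5 over the 12 arrays. For Mag, the first was Cldn19, the Schwann cell claudin (r = 0.934, n = 12 arrays), followed by Ctsc, Aard, P2ry1 and Kcnk1 at 0.903 to 0.912. For Egr2, G6pd2 (r = 0.829) and Mlip came first, then Pmp22 (r = 0.809), Slc9a3 and Cldn19 (r = 0.791). The nearest genes of the others were not myelin genes. Mbp was nearest to Emb (r = 0.965), an immunoglobulin superfamily member, then to Sh2d4a, Tmc1, Mlip and Atp2a3, of which Tmc1 (r = 0.951) encodes the transduction channel of hair cells. Pmp22 was nearest to Mlip (r = 0.983), then to Rgs5, a pericyte gene (r = 0.966), Slc5a5, Bhmt and Gbp7. Gldn was nearest to Kera (r = 0.961), a proteoglycan of connective tissue, then to Sh2d6, Dmgdh, Gca and Padi2. Sox10 was nearest to Mir100hg (r = 0.953), then to Tlcd3a, Bmp7, Setd1b and Dapp1. Pou3f1 was nearest to Dmrta1 (r = 0.831), then to Acbd7, Aqp11, Cox20 and Reep6.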

How the data were processed

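The data were 12 Affymetrix Mouse Gene 1.0 ST arrays. The authors deposited log2 expression values made by robust multiarray averaging (RMA, no version given in the sources used here), and whether both dissection sets went through 1 run is not stated. Of 35556 entries, 21789 carried 1 gene symbol, and those with several (1621) or none (12146) were left out. A gene was tested where at least 1 group mean exceeded a log2 signal of 6, the level in the methods (16306 genes, 16253 of them matched to the reference annotation by Entrez identifier). The entry with the highest mean stood for a gene that had several.

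Tests used limma 3.58.1 under R 4.3.3 (lmFit and eBayes, 6 group means, no block because the methods name an unpaired test, 6 residual and 2.78 prior degrees of freedom) and Benjamini-Hochberg adjustment over all tested genes. The fit was tested on simulated data with independent noise and no shared pools or dissection sets. That test therefore does not cover the dependence between the arrays of a pool or set. Alternatives were a replicate block for the dissection sets, a block for the 4 pools, 1 value per pool, no filter, quantile normalization, the mean of a gene's entries, the methods' t-test, and leaving out each array. The methods give the shared pool of an age and set, and deviations from the group means correlated with r = 0.544 to 0.916 across genes between same-numbered arrays over 15 pairs of groups, so the replicate numbers pair the arrays. The number of arrays limits the precision.

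The genes and lists were chosen with earlier results of these data known. All 8 genes are named, with the list genes that passed over the 3 pieces and the 5 nearest genes by correlation. Other genes were singled out after their values were seen, which are Cd9, Cldn19, Pmp2, Nrcam, Drp2, Nfatc4, Fa2h, Sqle, Nrg1, Pax3, Id2, Ngfr, Sox2, Erbb3, Gpr37 and Stmn2. Python 3.11.15 with pandas 2.3.3, numpy 2.4.6 and matplotlib 3.10.9 made the tables and figures.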

Additional observations from a re-analysis of the deposited data

Results flagged for a closer look

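The apex minus base difference of Pmp22 ran in opposite directions at the ages in both dissection sets, 0.38 and 0.34 at P8 against -0.12 and -0.62 at P0. The test of the change gave 0.73 ± 0.55 (SE, n = 2 arrays per group, limma, adjusted p = 1) and did not pass. Egr2 did the same, with 0.06 and 0.20 at P8 against -0.15 and -0.06 at P0, and the test of the change gave 0.24 ± 0.21 (limma, adjusted p = 1) and did not pass. Groups of 2 arrays are too small for a test of outlying arrays.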

How the results depend on the processing

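With 1 value per pool, the count over the 3 pieces was 0 of the 7 genes, in place of 2, and 0 of the 94 list genes, in place of 7. With the replicate block it was 2 in the base, in place of 1, 4 in the middle, in place of 2, and 4 in the apex, in place of 3. These came from the calls named above, and the block changed no other call of the 7 genes. The methods' t-test with Benjamini-Hochberg adjustment gave 0 in the base, the middle and the apex. Without the filter, Pmp22 in the apex did not pass (adjusted p = 0.0537, limma). Quantile normalization turned 2 small differences round, to 0.04 for Egr2 in the base and to -0.04 for Sox10 between apex and base at P0. The cause of these shifts was not tested, and 1 value per pool also leaves a smaller number of values.

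Leaving out each array in turn gave 1 to 2 calls over the 3 pieces, 0 to 1 in the base, 1 to 2 in the middle, 0 to 3 in the apex and 4 to 8 over the lists, with 4 without the P0 apex of the first set. The fits with a lone array assume that it varies like the other groups. Differences of either sign arose for Sox10 (-0.21 to 0.03) and Pou3f1 (-0.06 to 0.06) over the 3 pieces, for Mag (-0.00 to 0.83), Egr2 (-0.11 to 0.06) and Sox10 (-0.58 to 0.08) in the base, for Sox10 (-0.40 to 0.31) and Pou3f1 (-0.13 to 0.13) in the middle, and for Sox10 (-0.24 to 0.30) and Pou3f1 (-0.05 to 0.34) in the apex. Between apex and base at P8 they arose for Mbp (-0.02 to 0.54), Pmp22 (-0.01 to 0.73), Mag (-0.07 to 0.76), Sox10 (-0.02 to 0.64) and Gldn (-0.02 to 0.23), and at P0 for Mbp (-0.32 to 0.14), Mag (-0.09 to 0.22), Sox10 (-0.12 to 0.19), Pou3f1 (-0.19 to 0.09) and Gldn (-0.13 to 0.14). For the change between the ages they arose for Mag (-0.14 to 0.70), Sox10 (-0.05 to 0.61) and Gldn (-0.04 to 0.23). The mean of entries changed no call.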
